A study of Populus qamdoensis and Populus schneideri with 18 samples.

Results

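Cytokinin receptors and the histidine phosphotransfer proteins that act after them were described at the transcript level in leaves of poplar cuttings grown under colored films. The 4 genes, of 39194 in the expression table, were taken by identifier. Pyun01G005630 (HK3a) and Pyun03G015950 (HK3b) are annotated in the study as CRE1-type histidine kinases, and Pyun13G002930 and Pyun08G018590 as AHP (histidine-containing phosphotransfer protein). The study had placed them in its cytokinin pathway as genes that differed between films in P. qamdoensis, so the members were chosen by measured FPKM differences between films in that species, which are given below as values with no test. The film differences in P. schneideri were not part of that choice, and these were tested. The level between the species and the ratios of paired genes were also tested. Those comparisons hold the P. qamdoensis libraries that chose the members, so they are not fully free of the choice.

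Leaves came from cuttings of Populus qamdoensis or Populus schneideri under a translucent colorless film (WF), a blue film (BF) or a green film (GF), with 3 libraries per film in each species and 18 in all. For P. schneideri the labels give the treatment as white, blue or green quality, and it was read as the same film. The P. qamdoensis cuttings were propagated vegetatively from trees of a natural forest, and leaves were taken from separate plants of a treatment. Whether the P. schneideri libraries came from separate plants is not given in the sources used here, and their p-values then measure only the spread between these libraries, which may be technical. Every library was compared to the genome of another poplar, P. yunnanensis, so a species difference in level and one in how well the reads map cannot be told apart.

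Cytokinins are plant hormones derived from adenine that promote cell division, delay leaf senescence and favor chloroplast development. The hormone binds a receptor histidine kinase in the membrane, which phosphorylates itself and passes the phosphate to an AHP protein. The AHP protein carries it to a type-B response regulator (B-ARR), a transcription factor that switches on cytokinin-responsive genes. In Arabidopsis the receptor AHK3 is the one most tied to delayed leaf senescence. Some AHP-like proteins lack the histidine that takes up the phosphate and act against the signal, and to which kind the 2 poplar genes belong was not examined here.

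Values are FPKM, fragment counts corrected for the length of the gene and the size of the library. Log2 fold changes are differences of mean log2(FPKM + 1), the first group minus the second, and a gene was called at a fold of at least 1.5 with a Benjamini-Hochberg adjusted p below 0.01 over all genes tested in limma. The fragments behind each value are unknown. All 4 members passed the filter of a mean of at least 0.5 FPKM in each fit. In bulk leaves, fewer cells that use a gene and less of its RNA per cell cannot be told apart. BF replicate 1 of P. qamdoensis stood apart from the rest: its median r with the other libraries of its species was 0.866, against 0.942 to 0.980 for the other 8, while those of P. schneideri ran from 0.966 to 0.979. Pyun01G038270, annotated as a chloroplastic protochlorophyllide reductase of chlorophyll synthesis, was present in every library, at 8.24 to 43.8 FPKM. Its highest values in the 2 species were 43.8 in BF replicate 1 of P. qamdoensis and 42.1 in GF replicate 1 of P. schneideri, the libraries in which Pyun08G018590 and the receptors, respectively, departed most from their replicates. It was nearly as high, at 41.1 FPKM, in WF replicate 3 of P. schneideri, where HK3a was at 33.4 and HK3b at 41.2 FPKM, the lowest of their film by far less.

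Both receptor genes were well expressed leaf transcripts. HK3a averaged 22.5 FPKM over the 9 P. qamdoensis libraries, a level above 78.3% of the genes tested in that species, and HK3b lay above 84.8%. In P. schneideri the corresponding shares were 85.9% and 88.1%. Of the phosphotransfer genes, Pyun13G002930 lay at a similar rank, above 77.3% of the genes of P. qamdoensis and 85.7% of those of P. schneideri. Pyun08G018590 was the weakest member, above 43.1% and 28.7% of genes. Its rank in P. qamdoensis was 30.4% without BF replicate 1, where the mean went from 6.28 to 3.77 FPKM, beside 3.52 FPKM in P. schneideri.

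In P. qamdoensis, HK3a read 21.9, 24.3 and 21.2 FPKM in the 3 WF libraries, 14.7, 12.3 and 22.2 in BF and 29.4, 27.4 and 29.5 in GF. The GF libraries all lay above the WF and BF libraries, while BF replicate 3 reached into the WF range. Means were 22.5 ± 1.66 in WF, 16.4 ± 5.17 in BF and 28.8 ± 1.19 in GF (SD, n = 3). The log2 fold change was −0.47 for BF against WF, 0.34 for GF against WF and −0.82 for BF against GF, so the receptor was at 56.9% of its GF level under the blue film. The value for BF against WF was −0.30 without BF replicate 2 and −0.70 without BF replicate 3.

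HK3b read 33.0, 35.4 and 32.7 FPKM in WF, 15.7, 17.04 and 27.3 in BF and 41.1, 37.8 and 41.0 in GF of P. qamdoensis. The films separated fully, with every BF library below every WF library and every GF library above both. Means were 33.7 ± 1.5004, 20.0 ± 6.37 and 40.0 ± 1.89 FPKM for WF, BF and GF (SD, n = 3). Its log2 fold change was −0.76 for BF against WF, 0.24 for GF against WF and −1.004 for BF against GF. The same library, BF replicate 3, was the highest of its film for both receptors.

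**Figure D1:**
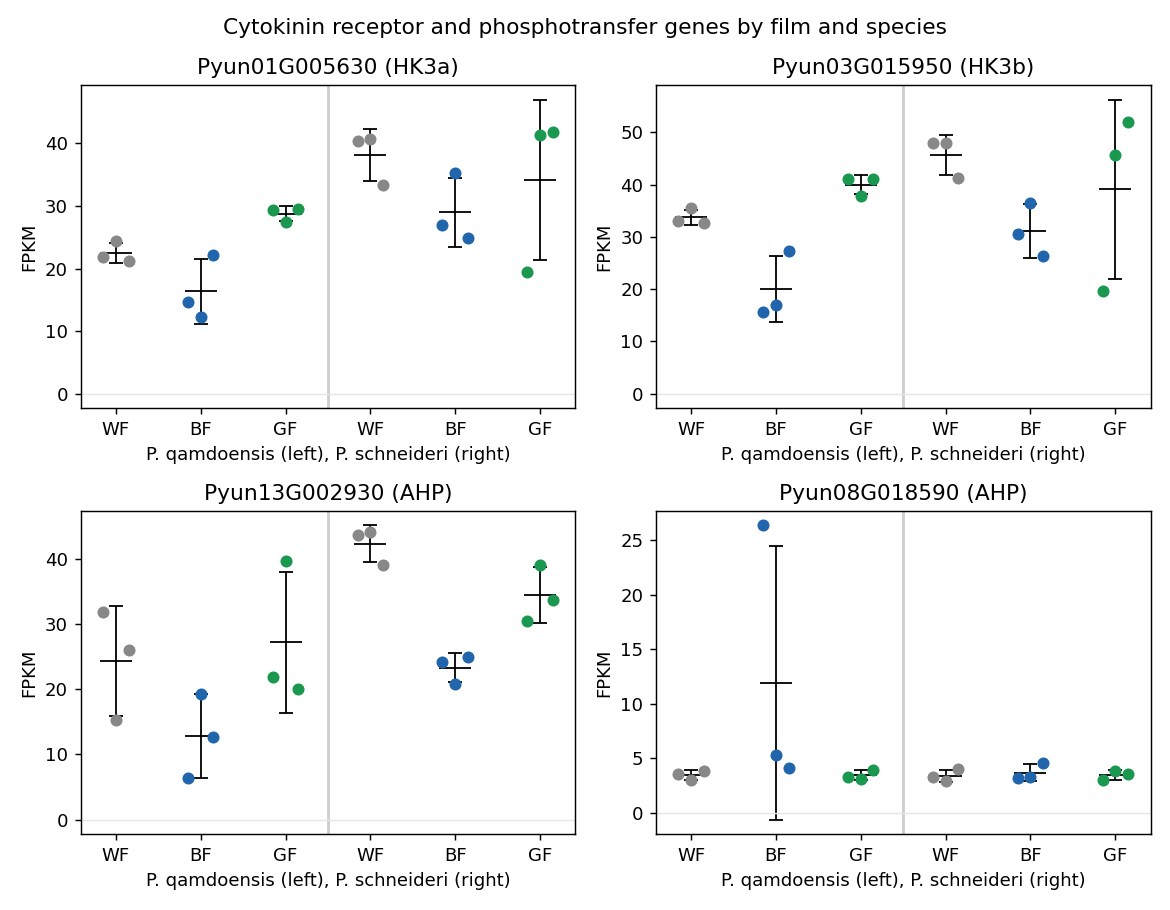
FPKM of the 4 members (vertical axes, each from its own range) in the WF, BF and GF libraries of P. qamdoensis (left of the grey line) and P. schneideri (right). Points are libraries, and the bars give mean and SD of 3. In P. qamdoensis the HK3b films do not overlap, in P. schneideri the Pyun13G002930 BF libraries (20.8 to 25.0) lie below all others, and the highest point of Pyun08G018590 is the 26.4 FPKM of BF replicate 1 of P. qamdoensis.

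Pyun13G002930, the more abundant phosphotransfer gene, varied more between P. qamdoensis replicates than the receptors did. It read 31.9, 15.2 and 26.1 FPKM in WF, 6.42, 19.3 and 12.7 in BF and 21.9, 39.7 and 20.1 in GF. BF overlapped WF through BF replicate 2 and WF replicate 2, but every BF library was below every GF library. Means were 24.4 ± 8.47, 12.8 ± 6.42 and 27.2 ± 10.9 FPKM (SD, n = 3), and log2 fold changes −0.94 for BF against WF, 0.15 for GF against WF and −1.08 for BF against GF. Without BF replicate 1 the differences of BF were −0.55 from WF and −0.70 from GF. The sign for GF against WF was not stable, at −0.15 without GF replicate 2, without WF replicate 2 or with library weights.

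Pyun08G018590 read 3.53, 2.98 and 3.85 FPKM in WF, 26.4, 5.29 and 4.09 in BF and 3.28, 3.14 and 3.97 in GF of P. qamdoensis. All 3 BF libraries lay above the other 6, yet the size of the difference came from BF replicate 1, which was 4.99-fold above the next highest of the 18 libraries and 7.47-fold above the median of the other 17. The same library was at least 4-fold above every other library of the table for 0.634% of 24273 genes. The mean that kept those genes includes this library, so genes nearly silent elsewhere could enter through it alone and add to that share. The log2 fold change for BF against WF was 1.11 with that library and 0.35 without it, and the BF mean moved from 11.9 ± 12.5 (SD, n = 3) to 4.69 FPKM (n = 2). GF and WF had nearly equal means of 3.46 FPKM, a log2 fold change of 0.0028. In the library where Pyun08G018590 was highest, Pyun13G002930 had its lowest value of all 18, at 6.42 FPKM, and Pyun01G038270 its highest. What set this library apart was not tested.

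Across the P. qamdoensis members, BF libraries lay wholly below WF for 1 of 4 (HK3b), where 10% of the 24147 genes tested did so, and wholly below GF for 3 of 4, where 12.9% of genes did. GF lay wholly above WF for the 2 receptors, against 7.43% of genes. BF lay wholly above WF for 1 of 4 (Pyun08G018590), as for 2241 of the 24147 genes, and wholly above GF for the same 1, as for 2423 genes. These counts restate the choice of members and are read no further. The contrasts against WF share the WF libraries, and those with BF share the BF libraries. Read GC content is a further difference between the libraries, since BF replicates 1 and 2 and WF replicates 2 and 3 form a class of higher GC and no GF library belongs to it. BF and WF hold equally many libraries of each class, so a term for it cannot move their difference. With that term in the fit, the differences for GF against WF became 0.13 for HK3a, 0.018 for HK3b, −0.12 for Pyun13G002930 and 0.44 for Pyun08G018590. For BF against GF they became −0.60, −0.78, −0.81 and 0.66 in that order. The green film's higher receptor values and the GC class cannot be fully told apart.

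P. schneideri gave a look at the same genes in libraries that had no part in their choice. HK3a read 40.3, 40.8 and 33.4 FPKM in WF, 26.9, 35.3 and 24.8 in BF and 19.5, 41.3 and 41.8 in GF. BF and WF overlapped, and the GF libraries split into 1 very low and 2 high values. The log2 fold change was −0.39 (SE 0.255) for BF against WF with a limma adjusted p of 0.493, and −0.23 for GF against WF with 0.761. An exact permutation test of any film difference, over the 280 ways to divide 9 libraries into 3 films, gave p = 0.582.

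HK3b read 47.9, 47.9 and 41.2 FPKM in WF, 30.6, 36.5 and 26.2 in BF and 19.7, 45.7 and 52.0 in GF of P. schneideri. Here the BF libraries were all below the WF libraries, as they were in P. qamdoensis, and GF replicate 1 was again the lowest of the 9. The log2 fold change for BF against WF was −0.55 (SE 0.288, limma adjusted p = 0.398), and the exact permutation test over films gave p = 0.418. That adjusted p was 0.0497 when fitted on the 6 BF and WF libraries alone and 0.0398 with library weights. It ran from 0.0498, without GF replicate 1, to 0.667 over omissions of 1 library, with no call. For HK3a the 6 libraries alone gave 0.150, weights 0.0646 and the omission of GF replicate 1 0.139. Neither receptor passed the test between any films of P. schneideri.

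GF replicate 1 decided the sign of the green film difference for the receptors. It was the lowest of its species' 9 libraries for both, as it was for 22.8% of the 23821 genes tested. Without it the GF means were 41.6 FPKM for HK3a and 48.8 for HK3b (n = 2), and the log2 fold changes against WF turned from −0.23 to 0.13 and from −0.33 to 0.10. The direction under the green film in P. schneideri is therefore unsettled for HK3a and HK3b. The high Pyun01G038270 value of that library was given above, beside the like value of WF replicate 3, and its part in the receptor values was not tested.

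Pyun13G002930 had the steadiest film values of the members in P. schneideri, at 43.8, 44.2 and 39.1 FPKM in WF, 24.3, 20.8 and 25.0 in BF and 30.5, 39.2 and 33.8 in GF. All 3 BF libraries lay below all 6 others, and the BF mean of 23.4 ± 2.22 was 55.2% of the WF mean of 42.4 ± 2.84 (SD, n = 3). The log2 fold change for BF against WF was −0.83 (SE 0.120), with an unadjusted p of 2.91e-05 and an adjusted p of 0.0404 in limma, which missed the threshold of 0.01. Against GF it was −0.54 (adjusted p = 0.315), and for GF against WF −0.29 (adjusted p = 0.365). The exact permutation test over films gave p = 0.00714, where the smallest that 280 arrangements allow is 0.00357, and the limma F test an adjusted p of 0.0407.

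The distance of Pyun13G002930 from the limma threshold depended on which libraries set the spread. Fitted on the 6 BF and WF libraries alone, the adjusted p was 0.00579, and with library weights 0.00263, both calls. Leaving out each of the 9 libraries gave log2 fold changes from −0.89 to −0.76 and adjusted p from 0.00796 to 0.216, and only the fit without GF replicate 1 made a call. In P. qamdoensis the value for BF against WF, given for description, was −0.94, and −0.55 without BF replicate 1.

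Pyun08G018590 was nearly level in P. schneideri. It read 3.28, 2.94 and 4.003 FPKM in WF, 3.20, 3.31 and 4.57 in BF and 2.97, 3.86 and 3.58 in GF, and all films overlapped. The log2 fold change for BF against WF was 0.085 (SE 0.163, limma adjusted p = 0.838), and the exact permutation test over films gave p = 0.829. No P. schneideri library came near the 26.4 FPKM of BF replicate 1 of P. qamdoensis.

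Over the members, limma called 0 of 4 in each film comparison of P. schneideri. Few genes were called at all: 6 genes or 0.0252% of those tested for BF against WF, 10 genes or 0.042% for GF against WF, 0% for BF against GF and 0.0294% in the F test. At an unadjusted p under 0.05, limma found 1545 genes for BF against GF, where none was called. BF lay wholly below WF for 2 of 4 members (HK3b and Pyun13G002930) and for 17.2% of all genes, and either wholly below or wholly above it for 26.4%. BF lay wholly below GF for 1 of 4 (Pyun13G002930), against 3.38% of genes. GF lay wholly below WF for 0 of 4, against 13.3%. In P. qamdoensis the same limma model and thresholds called 1 gene for BF against WF, 0 for GF against WF and 0 for BF against GF. The study lists many more genes for each of these comparisons in that species. The lack of calls among the members in P. schneideri is therefore not read as a difference between the species.

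**Figure D2:**
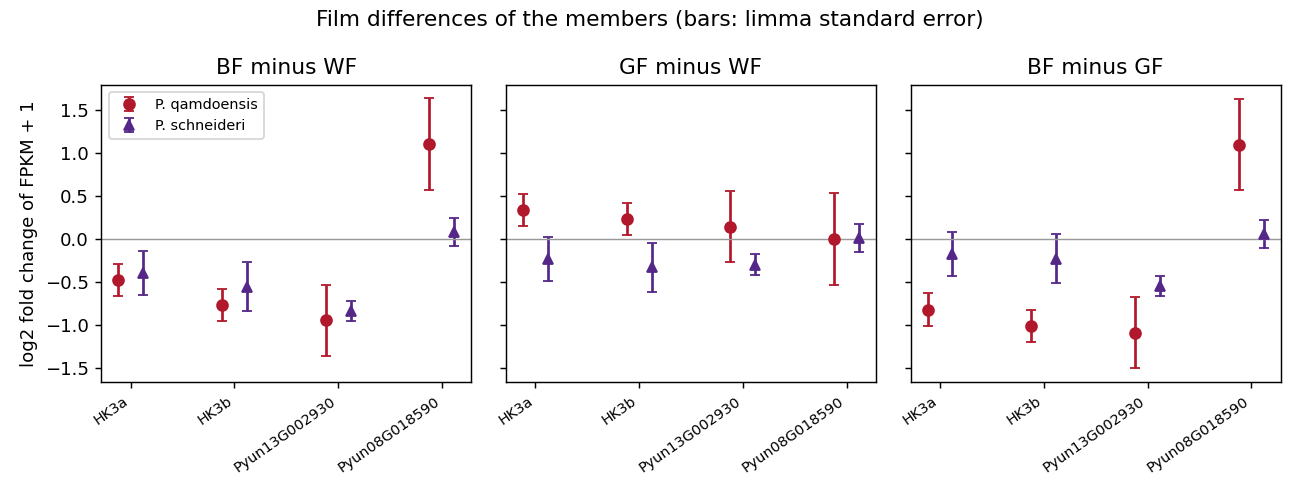
Log2 fold change of FPKM + 1 for BF minus WF, GF minus WF and BF minus GF (vertical axis) of each member, circles for P. qamdoensis and triangles for P. schneideri, with bars of 1 limma standard error. HK3a, HK3b and Pyun13G002930 lie below 0 for BF minus WF in both species (−0.94 and −0.83 for Pyun13G002930), while the 1.11 of Pyun08G018590 in P. qamdoensis rests on 1 library.

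Between the species, Pyun13G002930 and HK3a were lower in P. qamdoensis on average over the films. For Pyun13G002930 the log2 difference was −0.72 (SE 0.185), 1.64-fold lower, with a limma adjusted p of 0.00813 and p = 0.00225 in an exact permutation test that exchanged species within each film. For HK3a it was −0.57 (SE 0.142), with an adjusted p of 0.00641 and an exact permutation p of 0.00375, but at 1.49-fold lower it stayed just under the fold threshold. HK3b differed by −0.31 (SE 0.155, adjusted p = 0.152) and Pyun08G018590 by 0.35 (SE 0.240, adjusted p = 0.294), and neither passed. The call was thus 1 of 4 members, where 11.1% of 24273 genes were called and 5.63% were called lower in P. qamdoensis. That call ended, by a small margin in limma's adjusted p, with no filter (0.0128) or median-ratio scaling (0.0112).

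With all libraries, the species difference was largest under the blue film for HK3a and Pyun13G002930 and smallest under the green film. For Pyun13G002930 it was −0.83 under WF, −0.93 under BF and −0.39 under GF, and for HK3a −0.73, −0.81 and −0.17. That BF exceeded WF rests on single P. qamdoensis libraries. Without BF replicate 1, BF against WF for Pyun13G002930 was −0.55 there, beside −0.83 in P. schneideri. The species difference was then smaller under BF than under WF. The same held for HK3a without BF replicate 2, at −0.30 beside −0.39. The GF value of HK3a includes GF replicate 1 of P. schneideri, the lowest library of that species for this gene. The P. schneideri GF mean of HK3a was 34.2 FPKM with that library and 41.6 without it, beside 28.8 in P. qamdoensis. Whether the species difference changed between films was not tested, because the film differences of P. qamdoensis chose the members. The average over films holds those same P. qamdoensis libraries, so its tests are not free of that choice. Under WF alone limma's adjusted p was 0.107 for Pyun13G002930 and 0.0629 for HK3a, with no call. The call of Pyun13G002930 was lost in 14 of the 18 fits that left out 1 library, though its adjusted p went no higher than 0.0204 and the difference stayed between −0.83 and −0.59. The 4 fits that kept it were those without BF replicate 1, BF replicate 2, GF replicate 2 or WF replicate 1 of P. qamdoensis. HK3a was called in 5 of the 18, with adjusted p from 0.000173 to 0.0160. HK3b was called in 0 of the 18, with a difference from −0.45 to −0.22 and limma adjusted p from 0.00369 to 0.279.

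The paired genes were also compared within each library, as ratios of FPKM for the ranges and as differences of log2(FPKM + 1) for the tests. HK3b exceeded HK3a in all 9 libraries of each species, with an exact sign-flip permutation p of 0.00391, the smallest that 9 libraries allow. The HK3b to HK3a ratio of FPKM ran from 1.07 to 1.54 in P. qamdoensis with a median of 1.39, and from 1.01 to 1.24 in P. schneideri with a median of 1.14. The pair was therefore more unequal in P. qamdoensis. The log2 ratio of HK3a to HK3b averaged −0.43 ± 0.157 there and −0.17 ± 0.107 in P. schneideri (SD, n = 9), a difference of −0.26 with p = 0.0005 in the exact permutation within films. Leaving out each library kept that difference between −0.29 and −0.24.

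By film, the log2 ratio of HK3a to HK3b in P. qamdoensis was −0.57 ± 0.0400 in WF, −0.46 ± 0.00931 in GF and −0.27 ± 0.177 in BF (SD, n = 3). On average the receptors were thus closest to each other under the blue film. In P. schneideri the ratio was −0.26 ± 0.0358, −0.16 ± 0.144 and −0.10 ± 0.0697 in the same order. The BF mean of P. qamdoensis leaned on BF replicate 1, at −0.09. BF replicate 3 was at −0.29, and BF replicate 2 at −0.44, close to the GF libraries at −0.47, −0.45 and −0.46. In each species the libraries with the lowest HK3b value were also those with the ratio nearest to equality, BF replicate 1 of P. qamdoensis at 1.07 and GF replicate 1 of P. schneideri at 1.01. How reads that fit either receptor gene were divided is not given in the sources used here, and its part in these ratios was not tested.

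**Figure D3:**
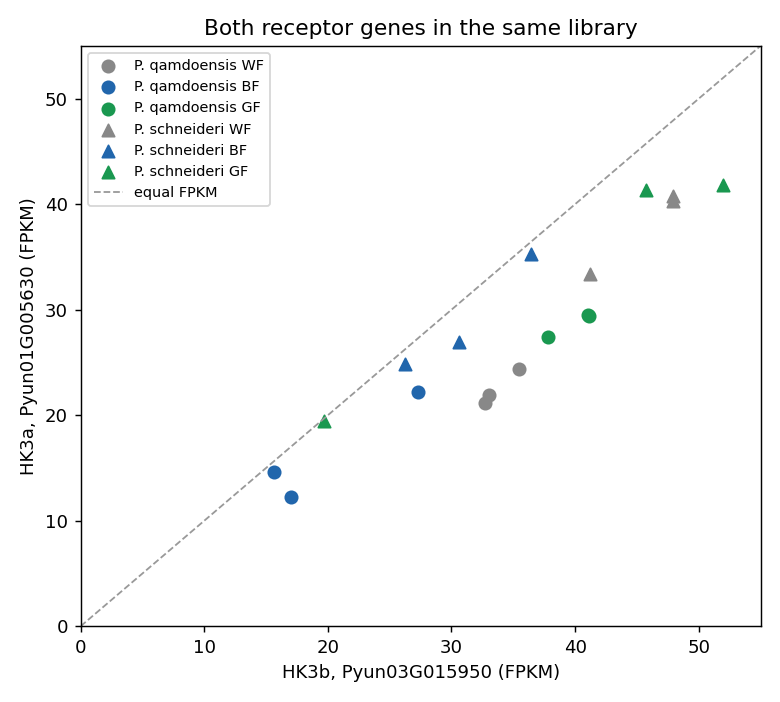
HK3a (vertical axis, FPKM) against HK3b (horizontal axis, FPKM) in the 18 libraries, circles for P. qamdoensis and triangles for P. schneideri, colored by film, with a dashed line of equal FPKM. All 18 points lie below the line, and the points of P. schneideri lie nearer to it, with median HK3b to HK3a ratios of 1.14 against 1.39.

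The receptors moved together across libraries. After subtraction of each species' mean, log2(FPKM + 1) of HK3a and HK3b had a Pearson r of 0.970 over the 18 libraries and 0.968 without BF replicate 1 of P. qamdoensis and GF replicate 1 of P. schneideri. Within species r was 0.959 and 0.984. These are descriptions, since the points share libraries and films and the genes may share reads. Ranked against the other genes of the 18-library fit, HK3b was the third most like HK3a, after Pyun19G014130 with an r of 0.986 and Pyun15G005860 with 0.976. The genes most like HK3b were Pyun07G002940 (0.980), Pyun19G014130 (0.971) and HK3a. Pyun19G014130 stood in both lists.

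The phosphotransfer genes did not follow the receptors as closely. Pyun13G002930 had an r of 0.471 with HK3a, which 25.8% of genes exceeded, and of 0.604 with HK3b, which 18.5% exceeded. Its most similar genes were Pyun11G001370 (0.963), Pyun01G034640 (0.924) and Pyun02G001630 (0.923). Pyun08G018590 had negative r with the receptors in P. qamdoensis alone, −0.630 for HK3a and −0.784 for HK3b, while in P. schneideri these were 0.0028 and 0.018. Over the 18 libraries they were −0.455 for HK3a and −0.567 for HK3b. Without BF replicate 1 of P. qamdoensis and GF replicate 1 of P. schneideri they were −0.664 and −0.672. With each other, Pyun08G018590 and Pyun13G002930 had an r of −0.681 over 18 libraries that shrank to −0.241 without BF replicate 1 of P. qamdoensis and GF replicate 1 of P. schneideri. The genes most like Pyun08G018590 were Pyun19G011290 (0.961), Pyun10G005860 (0.959) and Pyun19G011340 (0.958). Without those libraries their r was 0.328, 0.311 and 0.161, so that likeness rests on the libraries left out. They averaged 0.610, 1.54 and 0.810 FPKM over the 18 libraries, with highest values of 9.91, 25.4 and 14.4. In P. schneideri they averaged 0.013, 0 and 0 FPKM. The filter counted the highest library, so these genes may have passed it through that library alone.

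Of this pair of phosphotransfer genes, the only ones compared, Pyun13G002930 was the higher in all 9 P. schneideri libraries, at 5.47 to 15.03 times the FPKM of Pyun08G018590 with a median of 9.77 (exact sign-flip permutation p = 0.00391). In P. qamdoensis it was higher in 8 of 9 libraries with a median ratio of 5.11 (exact sign-flip permutation p = 0.0156). The exception was BF replicate 1, where the ratio was 0.243 and the order of the pair turned over. The log2 ratio of Pyun08G018590 to Pyun13G002930 was higher in P. qamdoensis by 1.07, with p = 0.00175 in the exact permutation within films. Without BF replicate 1 the difference was 0.69 with p = 0.00300 in the same exact test. By film, that log2 ratio averaged −2.46 in WF, −0.41 in BF and −2.60 in GF of P. qamdoensis. In P. schneideri the averages were −3.30, −2.38 and −2.99 in the same order. On these averages the species were furthest apart under BF. The BF average of P. qamdoensis leaned on BF replicate 1, at 1.88, beside −1.69 in BF replicate 2 and −1.43 in BF replicate 3. That BF exceeded WF in this respect rests on BF replicate 1. The film differences of P. qamdoensis that chose both genes enter the species difference, so its p-values are not free of that choice.

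The last step of the pathway was represented by the 5 genes that the study places at B-ARR. They carry names of MYB-related (GARP) regulators: Pyun07G014410 (GLK1-like), Pyun09G004560 (BOA), Pyun09G010930 (EFM) and Pyun06G017330 and Pyun16G004240 (PHL5). GLK proteins of Arabidopsis promote chloroplast development, and BOA is a component of its circadian clock. The placement follows the study's pathway assignment, and the names alone do not establish type-B response regulators. Like the members, these genes were taken from film differences in P. qamdoensis.

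In P. qamdoensis, BF lay wholly below WF for 3 of the 5, BOA and the PHL5 pair, beside the 10% of all genes, a count that restates how these genes were chosen. Pyun16G004240 averaged 10.6 ± 2.45 FPKM in WF, 5.70 ± 1.63 in BF and 15.4 ± 3.65 in GF (SD, n = 3). Its order of films was that of the receptors, with BF lowest and GF highest. EFM ran the other way for the blue film, at 9.62 ± 2.95 in WF, 17.5 ± 5.13 in BF and 8.32 ± 1.47 FPKM in GF (SD, n = 3), and its BF libraries lay wholly above GF.

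In P. schneideri, limma called 0 of the 5 in each film comparison. An unadjusted p under 0.05 was reached by 1, Pyun06G017330 for BF against GF, with a log2 fold change of −0.57 and a limma adjusted p of 0.675. BF and WF libraries stood apart for 2 of the 5, lower for BOA and higher for EFM, beside 26.4% of all genes in either direction. EFM averaged 13.1 ± 4.07 FPKM in WF, 19.2 ± 2.37 in BF and 15.4 ± 8.76 in GF (SD, n = 3), where GF replicate 1 alone held 25.5 FPKM. None of the 5 was called between the species.

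Across the 18 libraries EFM was the B-ARR gene most opposed to the receptors, with an r of −0.912 with HK3b, below which only 0.0330% of genes lay, and −0.882 with HK3a. Pyun16G004240 went with them, at 0.858 with HK3a and 0.847 with HK3b. Pyun07G014410 had an r of −0.846 with HK3a. Pyun13G002930 was most like BOA among these genes, with an r of 0.768 that 1.62% of genes exceeded. That r was 0.583 without BF replicate 1 of P. qamdoensis and GF replicate 1 of P. schneideri. Within P. qamdoensis and P. schneideri it was 0.825 and 0.552. These correlations share the libraries and the films through which the genes were chosen and are given with no test.

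**Figure D4:**
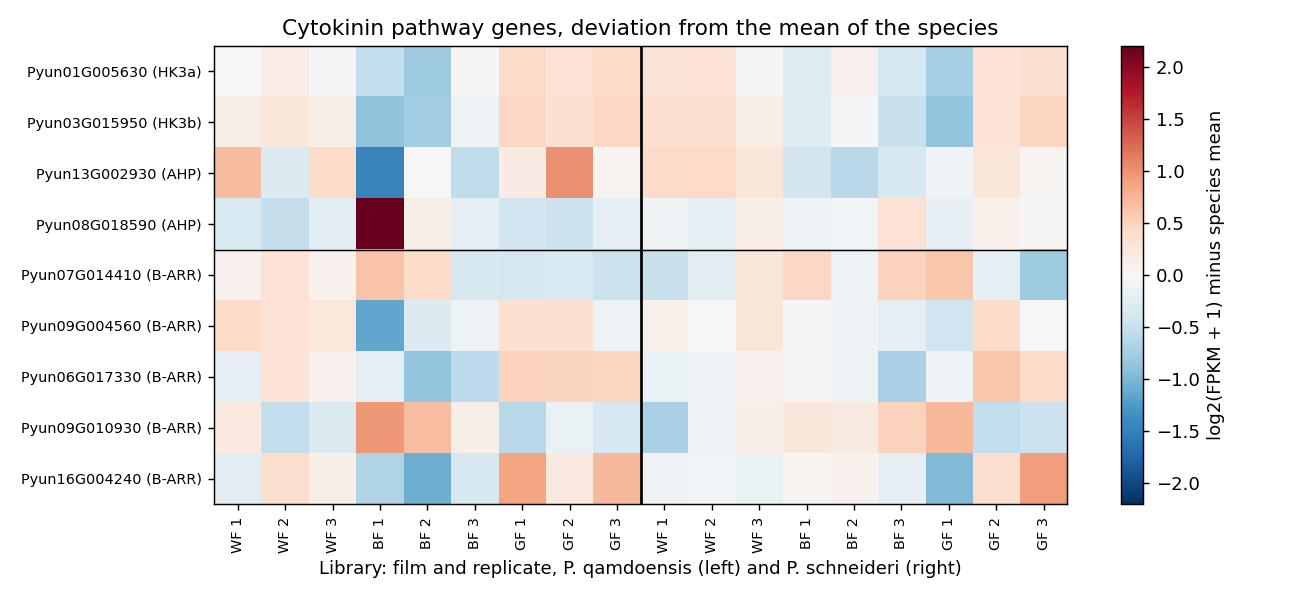
Deviation of log2(FPKM + 1) from the mean of the species (color, blue lower and red higher) for the 4 members and the 5 genes placed at B-ARR (rows) in each library (columns, P. qamdoensis left and P. schneideri right of the line). HK3a and HK3b share their pattern (r of 0.970), Pyun09G010930 (EFM) is opposed to them, and BF replicate 1 of P. qamdoensis holds the darkest cells, for Pyun13G002930 and Pyun08G018590.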

How the data were processed

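Leaf RNA of 18 poplar libraries was sequenced on an Illumina platform. Reads were filtered and aligned by the authors to P. yunnanensis, and expression was deposited as FPKM for 39194 genes, of which 37562 carry identifiers of that species and 1632 are new. The submitters' processing notes name HISAT2 and StringTie, with versions not given in the sources used here. The members and lists were chosen with earlier results of these data known. Log2(FPKM + 1) was fitted in limma 3.58.1 under R 4.3.3 (eBayes with trend), with 1 mean per film, keeping genes that averaged at least 0.5 FPKM, 23821 in P. schneideri, 24147 in P. qamdoensis and 24273 over both species. Calls needed a fold of at least 1.5 and an adjusted p below 0.01, the thresholds of the study, which names no test. Exact two-sided permutation tests, ratios and correlations used Python 3.11.15, numpy 2.4.6 and scipy 1.17.1. Named genes are the 4 members, the 5 genes placed at B-ARR, the protochlorophyllide reductase and, per member, the 3 genes with the highest r. The fits were tested on simulated data. Alternatives were another pseudocount, filters, scalings, library weights, eBayes without trend, a replicate block, GC class, the compared libraries alone, each film alone and leaving out each library. No sequence or annotation of the genome was used.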

Additional observations from a re-analysis of the deposited data

How the results depend on the processing

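Fragment numbers behind the FPKM values are unknown, so only the spread between 3 libraries limits the precision. Members called for BF against WF in P. schneideri went from 0 to 1 (Pyun13G002930) with library weights (log2 fold change −0.81) and with only the 6 libraries compared, and ranged from 0 to 1 over omissions of 1 library. The F test called 1 with weights. For the species difference 2 members were called with a pseudocount of 0.1 and with weights, where HK3a gave −0.59 and −0.65, and 0 with no filter, median-ratio scaling or the replicate block, where Pyun13G002930 gave −0.72, −0.68 and −0.72 with limma adjusted p of 0.0128, 0.0112 and 0.0126. Over omissions the count ran from 0 to 1, HK3a from −0.69 to −0.51 and Pyun13G002930 from −0.83 to −0.59. Under WF, BF and GF alone Pyun13G002930 gave −0.83, −0.93 and −0.39 with no call, and HK3b turned to 0.14 under GF. That HK3b value includes GF replicate 1 of P. schneideri. The P. schneideri GF mean of HK3b was 39.1 FPKM with that library and 48.8 without it, beside 40.0 in P. qamdoensis.

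In P. schneideri, weights turned HK3a for GF against WF to 0.012 and Pyun08G018590 for BF against GF to −0.055. Over omissions the uncalled differences crossed 0: HK3a from −0.41 to 0.13 for GF against WF and −0.52 to 0.012 for BF against GF, HK3b from −0.58 to 0.095 and −0.64 to 0.033, and Pyun08G018590 from −0.057 to 0.12 and −0.065 to 0.14, and −0.045 to 0.18 for BF against WF. Replicate numbers did not pair the libraries, since same-numbered deviations correlated at −0.483 to 0.230 in P. qamdoensis and −0.280 to 0.103 in P. schneideri. With the replicate block Pyun13G002930 for BF against WF in P. schneideri had a limma adjusted p of 0.0930. For both within-library ratios, libraries of the species were paired by film and replicate number, a pairing that follows the numbers only. The exact sign-flip permutation p of the species difference was then 0.00781 for each. In the exact permutation within films it was 0.0005 for the receptors and 0.00175 for the phosphotransfer genes.

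Genes called in all for BF against WF in P. schneideri numbered 304 with weights, 114 with the 6 libraries alone and 1 to 48 over omissions, against 6. For GF against WF they numbered 2 with no filter, 6 with a filter of 5 FPKM or median-ratio scaling, 98 with weights and 1 to 13 over omissions, against 10. For BF against GF they numbered 1 with no filter, 14 with weights and 0 to 1 over omissions. The F test called 13 with a pseudocount of 0.1, 4 with quantile or median-ratio scaling, 253 with weights and 1 to 24 over omissions, against 7. The species difference gave 1216 with a filter of 5 FPKM and 2443 to 3104 over omissions, against 2696. The causes of these changes were not tested.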
